A study of Mus musculus with 24 samples.

Results

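The major urinary proteins are encoded by a cluster of closely related mouse genes, and 10 of them are described here across uninjured carotid arteries of mice given different estrogen receptor ligands. The members were Mup1, Mup2, Mup3, Mup7, Mup10, Mup11, Mup12, Mup17, Mup18 and Mup20, and all 10 were found by their GENCODE M21 names among the 55421 genes of the deposited tables. They were singled out because Mup11, Mup12 and Mup18 stood out among the genes that differed between E2 and vehicle or between E4 and E2, so those comparisons, and tamoxifen against E2, are given below as descriptions with no test. The study compared ovariectomized C57BL/6 mice of 9 weeks of age in 4 groups of 6 libraries. The study states fewer samples per group for this experiment than were deposited, and all deposited libraries were used. The OVX group received a placebo, the E2 group 17β-estradiol, the E4 group the fetal estrogen estetrol, and the TAM group tamoxifen, a selective estrogen receptor modulator. The E4 libraries were assigned from their titles, because their treatment field carries a placebo entry, and the labels give 3 weeks of treatment whereas the methods of the study give a shorter one. E2 and E4 pellets held different doses, which the study set to reach a similar estrogenic effect, judged by the response of the uterus. The tamoxifen dose was not given in the sources used here. Differences between compounds are thus differences between these regimens.

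Major urinary proteins are small secreted lipocalins, barrel-shaped proteins that bind hydrophobic ligands. In mice they are made mainly in the liver, carry volatile pheromones into the urine and act as scent signals themselves. Their hepatic expression is higher in males and is controlled by pulsatile growth hormone acting through STAT5, with glucocorticoids, androgens and thyroid hormone as further regulators. Smaller amounts are made in exocrine and scent glands.

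The 10 members lay on the minus strand of chromosome 4 (GRCm38), between chr4:60066469-60070475 (Mup7) and chr4:62083476-62087342 (Mup3), and no exon of a member overlapped another gene. Within the coding sequence, the 28 pairs formed by Mup1, Mup2, Mup7, Mup10, Mup11, Mup12, Mup17 and Mup18 were 98.7% to 99.8% identical (median 99.3%). Mup3 shared 86.0% to 87.0% and Mup20, which encodes the male pheromone darcin, 90.6% to 91.5% with these 8 genes. The stretch below is 90 bases of coding sequence from GENCODE M21 transcripts (coding positions 246 to 335 in Mup11, Mup18 and Mup20 and 255 to 344 in Mup3). It was chosen as the stretch of this length in which Mup3 differs most from Mup11. Over the whole coding sequence Mup3 differed from Mup11 at 71 of 538 aligned bases. Capitals mark bases that differ from Mup11.
Mup11: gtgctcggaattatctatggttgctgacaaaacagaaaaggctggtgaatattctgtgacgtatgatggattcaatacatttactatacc
Mup18: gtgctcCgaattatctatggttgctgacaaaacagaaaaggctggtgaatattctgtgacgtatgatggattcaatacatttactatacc
Mup20: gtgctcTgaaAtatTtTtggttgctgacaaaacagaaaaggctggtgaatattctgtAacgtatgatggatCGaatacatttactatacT
Mup3: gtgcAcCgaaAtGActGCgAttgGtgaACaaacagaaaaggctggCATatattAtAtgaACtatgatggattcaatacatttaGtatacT
In this stretch Mup18 differed from Mup11 at 1 base, Mup20 at 8 and Mup3 at 20. Mup1, Mup2 and Mup12 were identical to Mup11 there, and Mup7, Mup10 and Mup17 differed at 1 base each.

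Reads of 150 bases could therefore be divided among the copies. Of all 150-base windows along its transcript, Mup2 shared 90.7% with another gene of the family, Mup18 86.3%, Mup10 84.4%, Mup1 82.5%, Mup11 78.2%, Mup7 77.5%, Mup12 75.9% and Mup17 40.4%. Mup20 shared 31.1% of its windows, and Mup3 shared none. The separate values of the 8 similar genes are uncertain for this reason, whereas those of Mup3 are not affected by perfect matches to its relatives. How reads with several matches were treated is not given in the sources used here.

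A motif near the transcription start was also shared. RefSeq (GRCm38.p6) gave a promoter for 7 members, and 6 of these held the letters TATATAA (searched on both strands), which 3.24% of 32851 mouse promoters of the same length held. The stretches below, from the minus strand, are shown because the members with the highest counts and the divergent Mup3 all held this motif, which is in capitals. The motif spanned the annotated start in Mup11 and lay before the start, at unequal distances, in Mup18, Mup10 and Mup3. As compared with Mup11, Mup18 had 10 mismatches in 85 aligned bases, Mup10 12 in 87 and Mup3 25 in 86.
Mup11 chr4:60662371-60662457: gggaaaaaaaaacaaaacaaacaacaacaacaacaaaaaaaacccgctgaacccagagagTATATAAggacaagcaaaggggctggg
Mup18 chr4:61674096-61674182: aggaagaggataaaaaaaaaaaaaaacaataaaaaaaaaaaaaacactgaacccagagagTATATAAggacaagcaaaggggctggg
Mup10 chr4:60582159-60582245: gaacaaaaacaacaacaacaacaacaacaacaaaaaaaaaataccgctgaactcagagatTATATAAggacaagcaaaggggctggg
Mup3 chr4:62087302-62087388: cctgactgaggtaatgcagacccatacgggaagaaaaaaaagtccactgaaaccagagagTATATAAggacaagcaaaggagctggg
The palindromic estrogen response element (GGTCA, 3 bases, then its reverse complement; held by 0.07% of all promoters), the single repeat GGTCA (40.5%) and the STAT5 palindrome TTCNNNGAA (8.30%) matched none of the 7 promoters, each searched on both strands. The single repeat lies within the full element, so those searches overlap. The glucocorticoid motif AGAACA matched Mup3 alone (19% of all promoters). These matches describe letters within 250 bases before and 50 bases after the start and nothing beyond that window.

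Libraries held 24647246 to 64221401 counts (median 45156107), and levels are given in CPM, the count of a gene scaled to its TMM-adjusted library total. All 6 smooth muscle and all 6 endothelial markers were detected in every library of these carotid arteries. The summed level of the smooth muscle markers was 2223 to 7963 CPM over all groups. Adipocyte genes were abundant as well, with 3443 to 7632 CPM for 8 white adipocyte markers. OVX replicate 5 and TAM replicate 35 were low in 8 sympathetic ganglion markers, with 30.2 and 127 CPM against group medians of 2279 and 2953 CPM. Genes were called where the adjusted p was under 0.05 and the log2 fold change exceeded 1 in size, by edgeR's quasi-likelihood test over 25033 genes with Benjamini-Hochberg adjustment. Mup20 did not pass the filter on low counts, so 9 members were tested. In whole arteries, fewer cells of a type and less RNA per cell cannot be told apart.

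The summed Mup level was lowest in OVX and TAM mice, intermediate in E4-treated mice and highest in E2-treated mice. In the OVX group the sum of the 10 genes was 3.45 CPM in the lowest library, 8.86 at the median and 12.7 in the highest. In the E2 group it was 168, 293 and 489 CPM, and in the E4 group 28.9, 55.3 and 110 CPM. In the TAM group it was 3.66, 7.61 and 17.1 CPM. The E2 and E4 groups did not overlap each other or either of the other groups, whereas the OVX and TAM libraries were interleaved. As means, the sum was 8.01 ± 3.72 CPM with OVX, 310 ± 115 with E2, 59.8 ± 32.3 with E4 and 9.13 ± 5.19 with TAM (SD, n = 6 each). The E2 mean was 38.6 times and the E4 mean 7.46 times the OVX mean, and the TAM mean was 1.14 times the OVX mean. The E2 mean was 5.18 times the E4 mean.

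**Figure D1:**
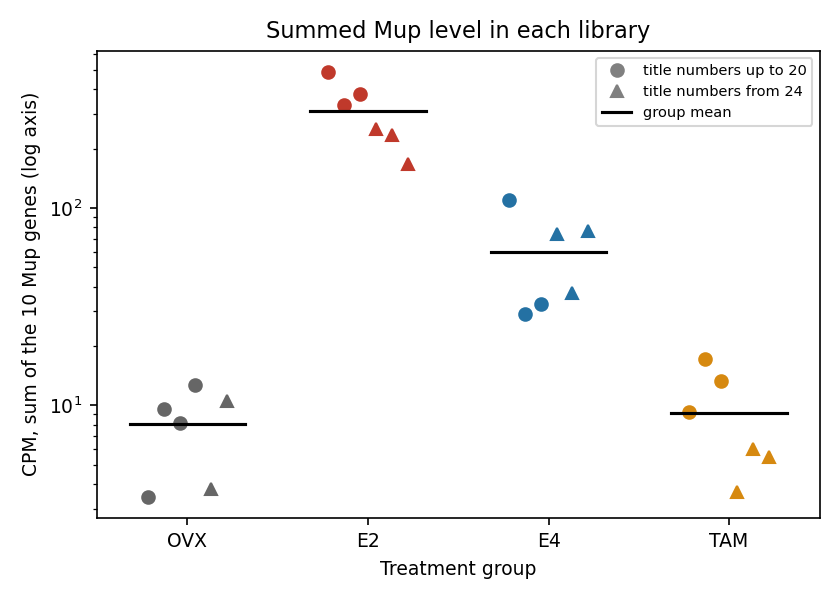
Summed level of the 10 Mup genes in each of the 24 libraries, in CPM on a log axis, by treatment group; circles are libraries with title numbers up to 20, triangles those from 24, and black lines are group means. E2 libraries (168 to 489 CPM) and E4 libraries (28.9 to 110 CPM) sit apart from each other and from the OVX and TAM libraries.

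Libraries within a group differed by a factor of 2.92 with E2, 3.67 with OVX, 3.81 with E4 and 4.68 with TAM. The numbers in the sample titles fell in separate series, up to 20 and from 24, and the labels do not say whether these are batches. With E2, the 3 libraries of the first series had 334 to 489 CPM and the 3 of the second 168 to 253 CPM, so the series did not overlap. With TAM they did not overlap either, at 9.22 to 17.1 and 3.66 to 6.00 CPM. The E4 series were interleaved (28.9 to 110 and 37.2 to 76.4 CPM), as were the 4 and 2 OVX libraries (3.45 to 12.7 and 3.76 to 10.5 CPM). The order of E2 over E4, and of E4 over OVX and TAM, held in either series, with mean sums of 401 and 219 CPM for E2, 57.3 and 62.4 for E4, 8.46 and 7.13 for OVX and 13.2 and 5.05 for TAM. E2 replicate 6 and E4 replicate 16 were the highest libraries of their groups, and without them the group means were 274 and 49.7 CPM.

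Over the 24 libraries together Mup11 had the highest counts of the members, whereas in the OVX group Mup18 had 764 counts and Mup11 733. The Mup11 level was 1.11 CPM in the lowest OVX library, 2.75 at the median and 3.87 in the highest, and with E2 it was 55.6, 94.8 and 164 CPM. With E4 it was 9.47, 17.6 and 33.6 CPM, and with TAM 1.21, 2.48 and 6.04 CPM. OVX and TAM overlapped, and E2 and E4 stood apart from them and from each other. In the E2 group 91.8% of all tested genes had a lower mean CPM than Mup11, as compared with 32.1% in the OVX group. Per kilobase of annotated exon, however, Mup18 exceeded Mup11, with a mean of 105 against 64.8 CPM per kb in the E2 group, because the annotated exons of Mup18 are shorter.

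Mup18 followed the same course, with 1.16, 2.86 and 3.85 CPM as lowest, median and highest OVX values and 52.8, 92.6 and 153 CPM with E2. With E4 it was 7.88, 17.1 and 31.2 CPM, and with TAM 0.873, 2.41 and 5.06 CPM. Mup10 was at 0.431, 1.31 and 1.85 CPM in the OVX group, 25.5, 47.3 and 75.7 with E2, 5.23, 9.02 and 20.7 with E4 and 0.639, 1.21 and 2.79 with TAM. In both genes the OVX and TAM values overlapped and the E2 and E4 values did not overlap those of any other group.

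Mup12, the member with the largest fold change for E2 against OVX, was at 0.0742, 0.254 and 0.527 CPM in the OVX group, from 4 to 24 counts per library. With E2 it was at 5.82, 11.5 and 19.2 CPM, with E4 at 1.24, 2.01 and 4.50, and with TAM at 0.149, 0.274 and 0.736. The lowest E4 library was thus above the highest OVX and TAM libraries. The other 4 similar genes, Mup1, Mup2, Mup7 and Mup17, had OVX medians of 0.172 to 0.652 CPM and E2 medians of 4.52 to 22.2 CPM. Their E4 medians were 0.919 to 4.16 CPM and their TAM medians 0.198 to 0.564 CPM. Their groups were separated in the same way as those of Mup12.

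**Figure D2:**
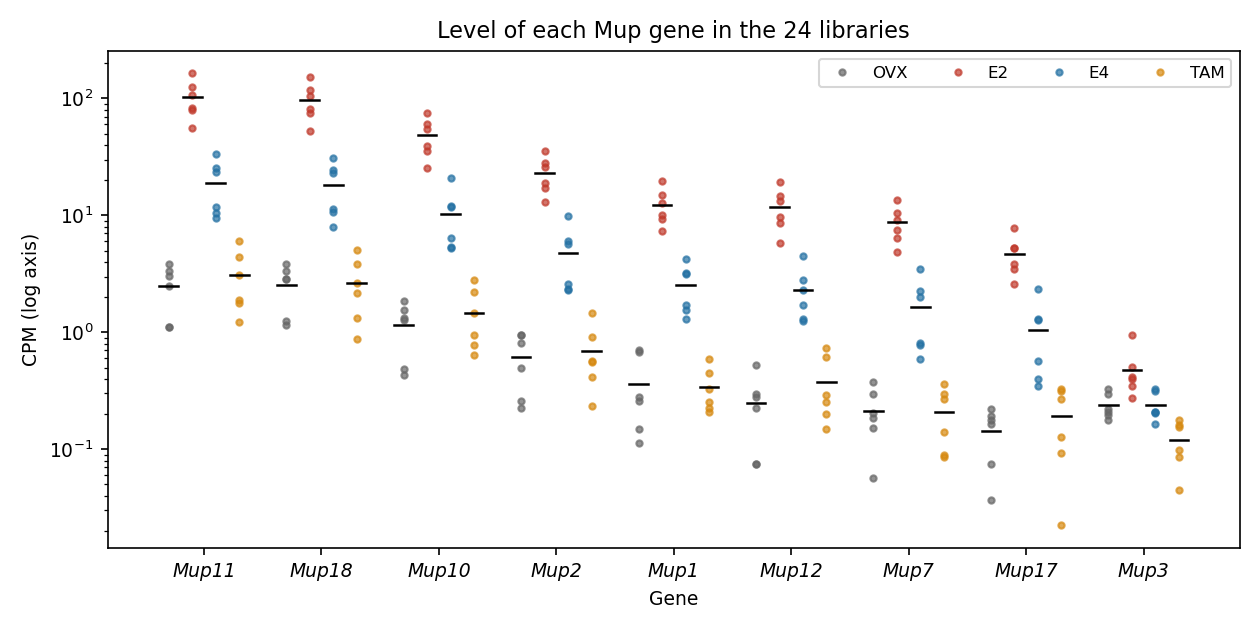
Level of 9 Mup genes in CPM on a log axis, with a point for each library coloured by group and a black line at each group mean; Mup20 (0 to 2 counts) is not drawn. In the 8 similar genes the E2 and E4 points form separate bands above the OVX and TAM points, while in Mup3 all points lie between 0.0446 and 0.939 CPM.

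Mup3 did not follow this course. It encodes a major urinary protein whose sequence is the most divergent among the members. Its level was 0.179 CPM in the lowest OVX library, 0.214 at the median and 0.330 in the highest, and with E2 it was 0.274, 0.408 and 0.939 CPM. With E4 it was 0.164, 0.208 and 0.329 CPM and with TAM 0.0446, 0.127 and 0.179 CPM. The E2 libraries lay above every TAM library, and all other pairs of groups overlapped. These values rested on 2 to 45 counts per library. Mup20 had 0 counts in 22 of the 24 libraries, 1 count in E2 replicate 6 and 2 in TAM replicate 35. Taking 3 counts as the smallest detectable amount, which covers counting error only, the libraries limit Mup20 to 0.0453 to 0.122 CPM.

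As compared with OVX, E4 raised 8 of the 9 tested members (edgeR's quasi-likelihood test, Benjamini-Hochberg adjusted p = 0.000149 to 0.00105), against 0.823% of all tested genes called higher and 2.51% called in either direction. The E4 and OVX libraries did not overlap in the same 8 genes, against 5.3% of all genes with higher values and no overlap. The log2 fold change was 3.25 for Mup12 (standard error 0.46), 3.16 for Mup10 (0.43), 2.94 for Mup11 (0.42) and 2.82 for Mup18 (0.42), and the 8 genes ran from 2.81 to 3.25. The median over the 9 members was 2.94, and that over all tested genes was -0.01. For Mup3 the log2 fold change was 0.0021 (standard error 0.31, 95% interval -0.64 to 0.64, edgeR adjusted p = 0.997). The E4 and OVX libraries alone would not have passed Mup3 through the filter on low counts, so this value rests on few counts. Whether Mup3 differed from the others in its response was not tested. This comparison did not choose the members, but it shares its OVX libraries with E2 against OVX and its E4 libraries with E4 against E2. In the first number series alone 8 members were called with a median of 2.82. In the second series, with 3 E4 and 2 OVX libraries, 0 were called by edgeR and 8 had an unadjusted p under 0.05, with a median of 3.20.

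As compared with OVX, no member was called with TAM, against 0.308% of all tested genes called in either direction. Of the 9 members, 0 were called by edgeR and 0 by DESeq2, and 1, Mup3, had an unadjusted p under 0.05 by either tool. The OVX and TAM libraries alone would have passed 6 of them through the filter on low counts, not Mup3, Mup7 or Mup17, so the values of these rest on few counts. In a fit of those libraries alone 0 of the 6 were called by edgeR and 0 had an unadjusted p under 0.05. The log2 fold changes of the 8 similar genes ran from -0.05 to 0.63 (adjusted p = 0.497 to 0.985 by edgeR's quasi-likelihood test). For Mup11 it was 0.31 with a 95% interval of -0.54 to 1.17, so a rise of up to 2.25-fold or a fall to 0.688 of the OVX level was not resolved. For Mup3 it was -0.96 (standard error 0.33, edgeR adjusted p = 0.103). The TAM and OVX libraries overlapped in all 9 genes, against 1.49% of all genes that were higher and 1.09% that were lower with no overlap. The median over the members was 0.20, that of the first number series 0.68 and that of the second -0.42.

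TAM against E4, which shares no OVX library, separated the same 8 genes, with lower values under TAM (adjusted p = 0.000576 to 0.0275 by edgeR's quasi-likelihood test), against 0.12% of all tested genes called lower. Their libraries did not overlap, against 0.419% of all genes with lower values and no overlap. The log2 fold change was -2.96 for Mup7 (standard error 0.46), -2.63 for Mup11 (0.41), -2.76 for Mup18 (0.42) and -2.39 for Mup17 (0.50). The member median was -2.76, against 0.00 over all tested genes. For Mup3, which these libraries alone would not have passed through the filter, the change was -0.96 (edgeR adjusted p = 0.348). Mup17 lost its call when any 1 of TAM replicates 12, 32, 33 and 35 or E4 replicates 16, 36 and 39 was left out (edgeR adjusted p = 0.0506 to 0.0945). The filter on low counts, the scaling and the estimate of the spread were shared with the E2 libraries, and the E4 libraries also helped to choose the members. In the first number series alone 0 members were called by edgeR and 8 had an unadjusted p under 0.05, with a median of -2.12, and in the second 7 were called, with a median of -3.64.

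The comparisons with E2 chose the members and are described only. From OVX to E2 the log2 fold change of the 8 similar genes was 5.02 (Mup17) to 5.61 (Mup12), which is 32.4 to 48.9 times the OVX level, with standard errors of 0.42 to 0.51. For Mup3 it was 1.01 (standard error 0.29), and 0.70 without E2 replicate 6. Over all tested genes 0.923% were called higher with E2 and 1.27% in either direction. The E2 and OVX libraries did not overlap in the 8 similar genes, against 2% of all genes that were higher with no overlap. From E2 to E4 the 8 genes changed by -2.44 (Mup18) to -2.17 (Mup17) and Mup3 by -1.01, with no overlap in the 8 genes against 4.13% of all genes that were lower with no overlap. From E2 to TAM they changed by -5.35 (Mup7) to -4.56 (Mup17) and Mup3 by -1.97, with no overlap in all 9 genes against 3.13% of all genes. The member median from E2 to E4 was -2.75 in the first number series and -1.74 in the second.

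**Figure D3:**
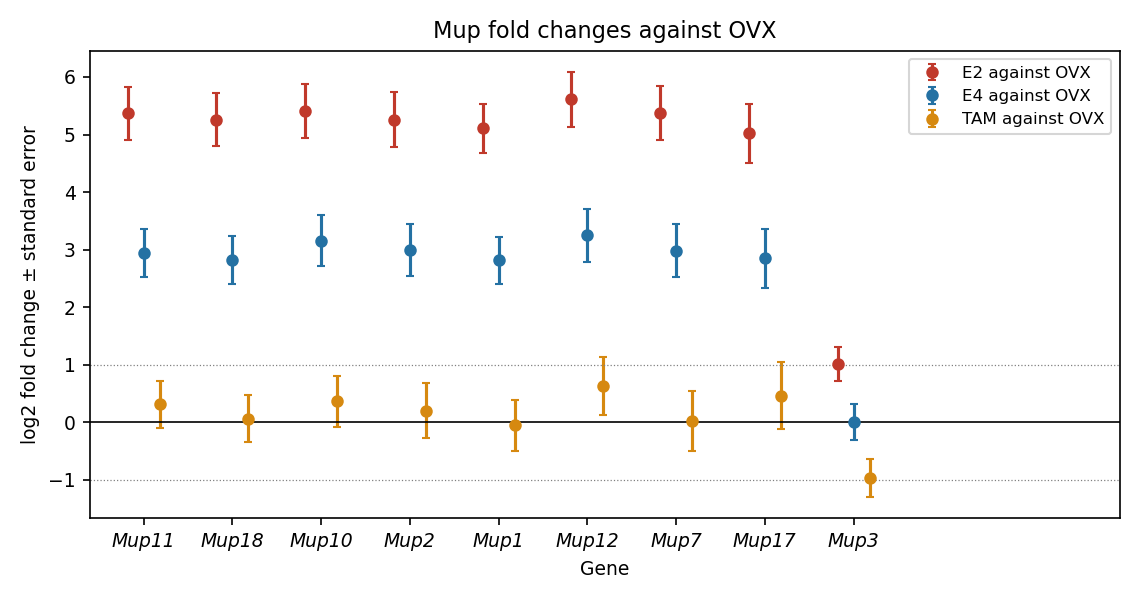
Log2 fold change of 9 Mup genes in E2, E4 and TAM mice against OVX mice, with bars of 1 standard error from the edgeR fit of 24 libraries; dotted lines mark the threshold of 1 in either direction. E2 lies at 5.02 to 5.61, E4 at 2.81 to 3.25 and TAM at -0.05 to 0.63 in 8 genes, and Mup3 lies at 1.01, 0.0021 and -0.96.

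The proportions of the counts assigned to the members changed little while their sum changed many-fold. How reads matching several copies were counted is not given, and a division among copies could by itself keep such shares alike. The shares of the similar genes therefore do not show which copies were transcribed, and this was not tested. Mup3 has no perfect matches to its relatives. Mup11 took 30.9% of the 10-gene count in the OVX group, 33% with E2, 31.8% with E4 and 33.6% with TAM. Mup18 took 32.2%, 31.5%, 30.2% and 29.1%, and Mup10 14.5%, 15.7%, 17.0% and 16.1%. The share of Mup3 differed most in relative terms, with 3.04% of 2372 counts in the OVX group, 0.155% of 84986 with E2, 0.396% of 13904 with E4 and 1.32% of 2657 with TAM. In single libraries the Mup3 share was 1.87% to 5.98% with OVX, 0.109% to 0.214% with E2, 0.283% to 0.717% with E4 and 0.260% to 2.99% with TAM. The OVX, E2 and E4 shares of Mup3 did not overlap. The Mup10 share did not overlap between OVX (12.5% to 15.7%) and E4 (15.8% to 18.7%) either.

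**Figure D4:**
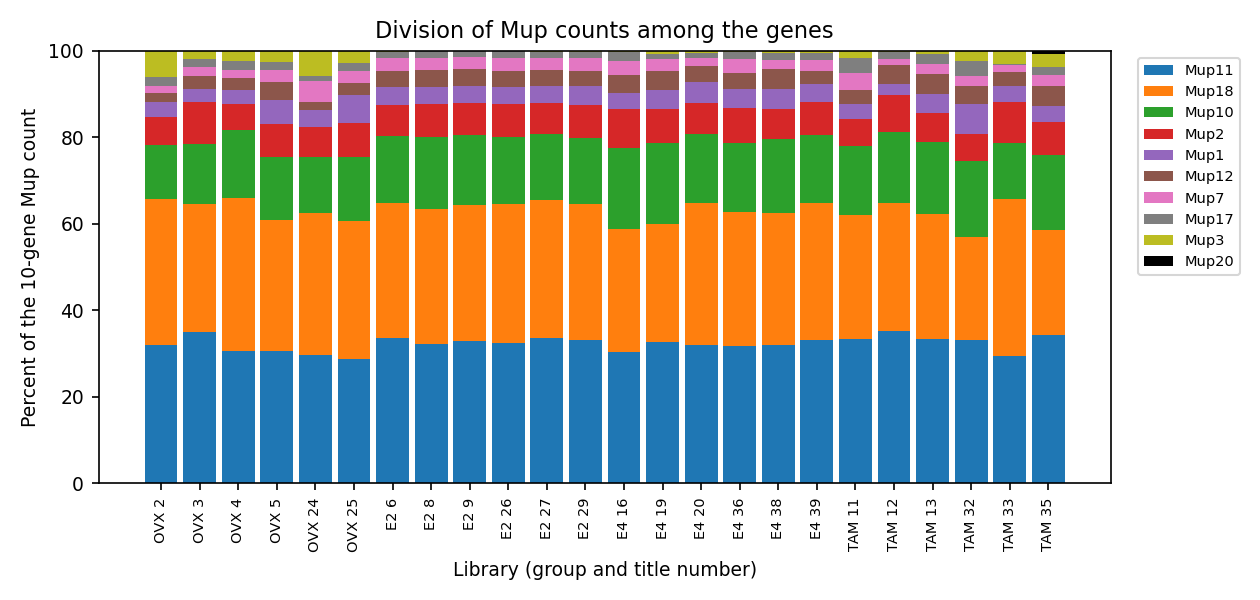
Share of each gene in the 10-gene Mup count of every library, in percent, with libraries named by group and title number and Mup20 in black. Mup11, Mup18 and Mup10 take similar shares in all 24 libraries, and the Mup3 share is 1.87% to 5.98% with OVX and 0.109% to 0.214% with E2. Shares are of assigned counts, and reads matching several similar copies could be divided among them.

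The 10 members held 51.1% of the counts of the 49 annotated Mup genes and pseudogenes in the tables, 22 of them coding. Mup22, which is not among the members and shared 100% of its 150-base windows with other family genes, had 44538 counts over all libraries, more than Mup11 with 34102. Its mean level was 3.19 CPM with OVX, 134 with E2, 25.3 with E4 and 3.56 with TAM, and for E4 against OVX its log2 fold change was 2.99 (edgeR adjusted p = 0.000209). The sum over all 49 genes was 15.3 CPM with OVX, 604 with E2, 120 with E4 and 17.8 with TAM, in nearly the same ratios as the 10 members. Mup-ps22, a processed pseudogene of 243 bases on chromosome 11 (chr11:55123695-55123937), had 18018 counts and moved from 1.32 CPM with OVX to 52.9 with E2. It matched the Mup11 transcript over 243 bases at 86.8% identity and across 3 exon junctions. Mup21, a divergent gene of the family outside the 10 with no shared window, was at 0.0377 CPM with OVX and 0.223 with E4. Its log2 fold change was 2.57 (edgeR adjusted p = 0.0109), with overlapping groups. These values rest on 0 to 4 counts in OVX libraries and 1 to 21 in E4 libraries (median 7). The E4 and OVX libraries alone would not have passed Mup21 through the filter on low counts.

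Among 18 genes known as regulators of Mup transcription in liver, 17 were tested. For E4 and for TAM against OVX 0 of them were called by edgeR or by DESeq2, with 10 and 7 at an unadjusted p under 0.05 by either tool. For E2 1 was called, Ghr, which encodes the growth hormone receptor. Ghr was at 126 to 184 CPM in the OVX group (median 151), 246 to 394 with E2 (median 302), 140 to 221 with E4 (median 159) and 112 to 165 with TAM (median 149). The E2 libraries thus lay above those of every other group, as with Mup11, whereas E4 overlapped OVX. Hnf4a, a hepatocyte transcription factor, had at most 2 counts in any library and was singled out after its values were seen. The list median was 0.03 for E2, -0.10 for E4 and -0.04 for TAM, against 0.01, -0.01 and 0.00 over all tested genes.

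Of 9 glucocorticoid target genes, 3 were called higher and 1 lower with E4 against OVX. Zbtb16, a transcription factor induced by glucocorticoids, had a log2 fold change of 2.16 (edgeR adjusted p = 0.000592), Fkbp5 1.22, Mt2 1.05 and Dusp1 -1.16. With TAM Zbtb16 alone was called (1.65, edgeR adjusted p = 0.0218) and with E2 0 of the 9 were called by edgeR or DESeq2 (2 at an unadjusted p under 0.05). Zbtb16 therefore differed in order from the Mup genes, with group means of 15.5 CPM for OVX, 17.5 for E2, 69.0 for E4 and 48.6 for TAM. The list median was 0.45 for E4, 0.62 for TAM and -0.02 for E2.

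No extracellular lipocalin outside the family was called higher. Of 17 such genes 8 were tested, and 2 were called with E4 against OVX, both lower. These were Orm2 (log2 fold change -1.51) and Orm1 (-1.29), which encode acute-phase α1-acid glycoproteins. With E2 and with TAM 0 of the 8 were called by edgeR or DESeq2, with 6 and 3 at an unadjusted p under 0.05. The list median was -0.39 for E2, -0.43 for E4 and -0.16 for TAM.

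Of 7 classical estrogen target genes, which share Esr1 and Igf1 with the regulators, 3 were called higher with E2, 2 with E4 and 1 with TAM. Stc1, which encodes the secreted glycoprotein stanniocalcin-1, was at a mean of 5.18 CPM with OVX, 76.4 with E2, 22.7 with E4 and 12.4 with TAM. It was called higher with TAM than with OVX (log2 fold change 1.26, edgeR adjusted p = 0.00657). Mup11 shared the order of E2 over E4, and of E4 over OVX and TAM. Between OVX and TAM Mup11 was not called, with overlapping libraries and medians of 2.75 and 2.48 CPM. Greb1, an estrogen receptor cofactor, was called with E2 (2.41) and E4 (1.15), and Pgr, the progesterone receptor, with E2 (1.12). The list median was 0.43 for E2, -0.02 for E4 and 0.27 for TAM.

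The 15 hepatocyte markers did not share 1 course over the groups. Cyp3a11 was at 0 in all 24 libraries, and Fga and Fgb, which encode fibrinogen chains, were at 0 in every E2 library. Alb, which encodes albumin, had 0 to 2 counts in the E2 libraries, where the 10 Mup genes together had 6808 to 23445 counts. In the OVX libraries Alb had 0 to 118 counts. Other markers were present in the E2 libraries, among them Ahsg, which encodes the plasma protein fetuin-A, with 118 to 233 counts, Ttr, which encodes transthyretin, with 11 to 26, and Apoa2, which encodes an apolipoprotein, with 13 to 22. Pck1 had 29498 to 81402 and Cyp2e1 3111 to 6111 counts there. The markers given by name were chosen after their values were seen. The summed level of the 15 markers was 794 to 1605 CPM with OVX, 730 to 1848 with E2, 1158 to 1993 with E4 and 842 to 1897 with TAM, most of it Pck1 and Cyp2e1, which adipocytes also express. Of the 6 tested, Ahsg was called higher and Cyp2e1 lower with E2 (log2 fold changes 1.06 and -1.51), and 0 were called by edgeR or DESeq2 with E4 or TAM (3 and 0 at an unadjusted p under 0.05).

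Mup genes are also expressed in glands, so their markers are given as well. Of 14 salivary gland markers, Smr2 and Prb1 were at 0 in every library, and the summed level, most of it Amy1, was 84.9 to 137 CPM with OVX, 77.4 to 97.7 with E2, 69.7 to 93.5 with E4 and 76.3 to 97.9 with TAM. E4 replicate 39, with a Mup sum of 76.4 CPM, had 287 counts of Bpifa2, 42 of Smr3a and 29 of Dcpp1, all salivary secretory genes, whereas the E2 libraries had 0, 0 and at most 2 counts of these. For 10 mammary and skin epithelium markers it was 5.40 to 7.89, 6.64 to 55.5, 5.74 to 23.4 and 6.11 to 10.1 CPM, and E2 replicate 9 had the highest value. Of these lists, Aqp5, which encodes a water channel, was called higher with TAM as compared with OVX (4.61). Epcam, an epithelial adhesion molecule, was called higher with E4 by edgeR (3.80), and DESeq2 gave it no adjusted p. The Epcam call rested on E4 replicate 38, which had 12.3 CPM against an E4 median of 0.116 and an OVX median of 0.202 CPM, and without that library the log2 fold change was -0.22 and not called. With most other single libraries left out the call was lost as well (edgeR adjusted p up to 0.0903). For E4 against OVX 0 of the 5 tested salivary genes were called by edgeR (3 at an unadjusted p under 0.05) and 1, Aqp5, by DESeq2. The edgeR log2 fold change of Aqp5 there was 1.86, and 0.35 without E4 replicate 38. The E4 and OVX libraries alone would not have passed Epcam or Aqp5 through the filter on low counts, so both were tested there only with other groups in the fit.

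White adipocyte genes were measured at high levels throughout, with 8 markers summing to 3691 to 7632 CPM with OVX, 4617 to 7338 with E2, 4034 to 6114 with E4 and 3443 to 4993 with TAM. Cfd, the adipokine adipsin, was called higher with E2 (log2 fold change 1.26). Lep, which encodes leptin, was called lower with E4 (-1.33) and TAM (-1.49), and Retn, which encodes resistin, with E4 (-1.09). The list median was 0.05 for E2, -0.15 for E4 and -0.20 for TAM. The brown adipocyte genes Elovl3 (-1.15) and Ucp1 (-1.09) were called lower with E4. The part of any of these cell types in the Mup levels was not tested.

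The genes whose levels followed the Mup sum most closely over the 24 libraries were Akr1cl, Gm41192, Gm5608, Cfd and Aldh1a2, chosen by Pearson's correlation of log2 CPM. The coefficient was 0.939 for Akr1cl (Spearman's rho 0.833), 0.939 for Gm41192 (0.888), 0.936 for Gm5608 (0.914), 0.928 for Cfd (0.926) and 0.921 for Aldh1a2 (0.878). These are descriptions over libraries that share the group differences. Within groups, Cfd had a coefficient of 0.687 and Akr1cl 0.191. Akr1cl, a member of the aldo-keto reductase family, was at a mean of 0.940 CPM with OVX, 28.0 with E2, 5.80 with E4 and 1.19 with TAM. Aldh1a2, an enzyme of retinoic acid synthesis, was at 2.82, 23.0, 6.87 and 4.53 CPM, and Cfd was at 697, 1667, 1118 and 731 CPM. Mup3 had a coefficient of 0.695 with the sum, the lowest among the tested members. The sum contains the members themselves, with Mup11 and Mup18 as its largest parts, and Mup3 rests on few counts, so this rank is a description only.

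**Figure D5:**
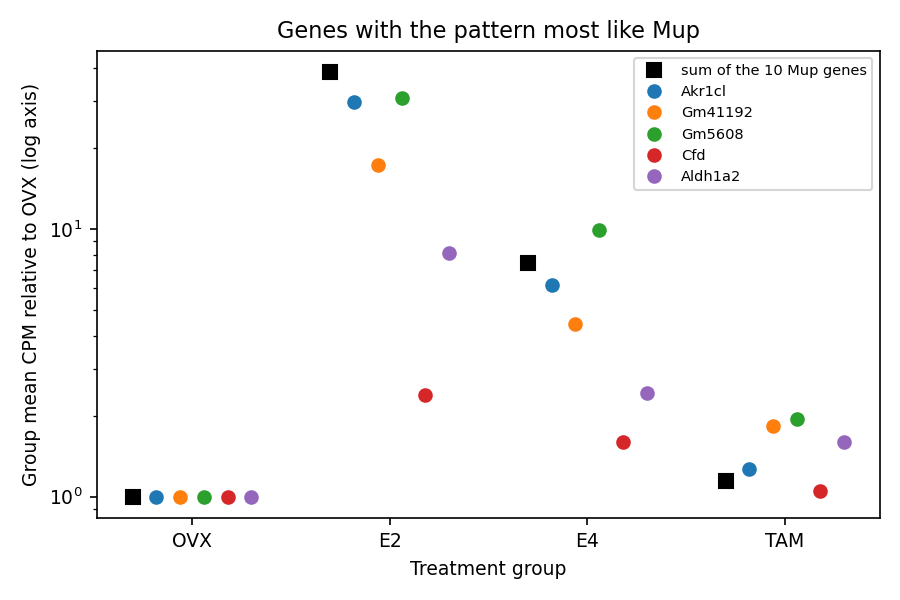
Group mean CPM of the Mup sum and of the 5 genes with the most similar pattern, each divided by its OVX mean, on a log axis; the symbols of a group are set side by side. The Mup sum, Akr1cl and Gm5608 are highest with E2 at 38.6, 29.8 and 30.9 times the OVX mean, and Cfd reaches 2.39 times.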

How the data were processed

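RNA of uninjured carotid arteries was sequenced as stranded mRNA libraries with paired reads of 150 bases, in 24 libraries. Deposited values were estimated counts for each gene, in a separate table for every library and without normalization. Per the labels and the submitters' processing notes, bcl2fastq 2.17, Trim Galore, Bowtie2 and featureCounts were used with mm10 (GRCm38). The strand and multiple-match settings are not given in the sources used here. Between 8.87% and 9.80% of the values of a library carried decimals, none of them in a member, and values were rounded to whole numbers.

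Counts of all 24 libraries were fitted together in edgeR 4.0.16 (R 4.3.3) with TMM scaling, its default filter on low counts and the quasi-likelihood test, without covariates, and adjusted by Benjamini-Hochberg over 25033 genes. Standard errors were derived from the F statistic. The procedure was tested on simulated data. DESeq2 1.42.0 was an alternative. Sequences were compared with Biopython 1.88, and figures were drawn with matplotlib 3.10.9 in Python 3.11.15. Transcript sequences came from GENCODE M21 and promoters from RefSeq.

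Groups came from the titles. Each library has its own number in its title, and nothing used here says whether it is a single animal, so p-values measure the spread between these libraries. The members and the gene lists were chosen with earlier results of these data known, so no list is independent support. The genes named were the 10 members, other Mup genes with their counts, up to 6 called genes per list and comparison, and the 5 genes outside the family with the highest correlation to the Mup sum (log2 CPM, prior count 2). Called genes of the smooth muscle and endothelium lists are given in the closing section. The result of 1 marker list is not reported here. Alternatives covered the test, scaling, filter, libraries, number series and rounding. The number series taken alone and the fit without a scaling factor were chosen after seeing the data.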

Additional observations from a re-analysis of the deposited data

Results flagged for a closer look

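Of the 48 sets of 6 libraries examined, 4 held a library far from its neighbours, judged by its distance to the nearest library divided by the whole range, where about 2.4 would arise by chance. Mup3 was at 0.939 CPM in E2 replicate 6 while the remaining E2 libraries had 0.274 to 0.503 (distance 0.655 of the range). This library also had the highest level of the 8 similar Mup genes in its group. Mup20 was at 0.0209 CPM in E2 replicate 6 and at 0.0464 CPM in TAM replicate 35 against 0 elsewhere in those groups (distance 1 each), which is 1 and 2 counts and under the smallest detectable amount of 3 counts. The library total of E4 replicate 38 was 24647246, whereas the remaining E4 libraries held 37505055 to 44224858 (distance 0.657), and its Mup sum of 37.2 CPM lay within the range of that group. Causes were not tested.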

How the results depend on the processing

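The number of members called was 8 for E4 against OVX, 0 for TAM against OVX and 8 for TAM against E4 with DESeq2, RLE size factors, no scaling factor, no filter, a stricter filter, the number series as a covariate or cut counts, and without OVX replicate 5 and TAM replicate 35. Only the number series taken alone changed it by over 1.5 times, to 0 for E4 against OVX in the second and to 0 for TAM against E4 in the first, with 8 members at an unadjusted p under 0.05 in each. With a library left out these numbers were 8, 0 and 7 to 8, where Mup17 was the member lost, and Mup17 was also lost with only these groups in the fit (adjusted p = 0.166). For TAM against OVX most of the 8 similar genes changed sign, none of them called. The second series gave -1.17 for Mup7, -0.65 for Mup18, -0.42 for Mup17, -0.38 for Mup2, -0.34 for Mup10 and -0.33 for Mup11 in place of 0.03, 0.06, 0.46, 0.20, 0.37 and 0.31. Mup1, at -0.05, was at 0.43 in the first series and at 0.36 without OVX replicate 5 and TAM replicate 35. With a library left out Mup1 was at -0.28 to 0.25, Mup2 at -0.15 to 0.39, Mup7 at -0.22 to 0.27 and Mup18 at -0.22 to 0.25. For E4 against OVX Mup3 was at -0.069 in the second series, at -0.045 with no scaling factor and at -0.11 to 0.12 with a library left out.

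Over every Mup gene and pseudogene the sums were 15.3 (OVX), 604 (E2), 120 (E4) and 17.8 CPM (TAM), because more genes enter. With a library left out the sums were 7.09 to 8.93, 274 to 338, 49.7 to 66.0 and 7.54 to 10.2 CPM, and the member medians were 5.09 to 5.44 (E2 against OVX), -2.60 to -2.11 (E4 against E2) and -5.32 to -4.87 (TAM against E2). Genes called among the regulator, glucocorticoid, lipocalin and estrogen lists numbered 4 for E2, 8 for E4 and 2 for TAM against OVX. In the second series alone they numbered 2, 0 and 0, in the first 0 for TAM, with only these groups in the fit 1 for TAM, and with a library left out 3 to 5, 7 to 9 and 1 to 2 (TAM: 1 without OVX replicate 3). With OVX replicate 5 left out the median for TAM against OVX was 0.39 and with TAM replicate 12 left out it was -0.05. Except where stated, the cause was not tested. No paired analysis was possible because each title number occurs in 1 group alone. Members with few counts in OVX (Mup12, Mup7, Mup17) limit the precision of their fold changes.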

Other observations

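Of the other coding genes of the family, Mup14 had 7264 counts over the 24 libraries, Mup13 6325, Mup19 5639, Mup8 4612, Mup15 4399, Mup9 4339, Mup16 3948, Mup21 171, Mup6 11, Mup4 2 and Mup5 0. Mup14 was at a mean of 0.540 CPM with OVX, 21.3 with E2, 4.55 with E4 and 0.707 with TAM, and Mup19 at 0.389, 16.4, 3.61 and 0.660 CPM. Of the 27 pseudogenes, Mup-ps22 and Mup-ps17 had 18018 and 52 counts. Mup-ps14, Mup-ps12, Mup-ps13, Mup-ps9, Mup-ps10, Mup-ps4, Mup-ps7, Mup-ps19, Mup-ps20, Mup-ps16, Mup-ps6, Mup-ps24 and Mup-ps8 had between 1 and 6 counts each. The pseudogenes Mup-ps1, Mup-ps2, Mup-ps3, Mup-ps5, Mup-ps11, Mup-ps15, Mup-ps18, Mup-ps21, Mup-ps23, Mup-ps26, Mup-ps28 and Mup-ps29 were at 0.

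In the lists of other cells, Myocd, a smooth muscle transcription cofactor, was called higher with TAM against OVX (log2 fold change 1.19), and Vwf, which encodes von Willebrand factor, with E2 (1.22) and E4 (1.27). In 7 thyroid and parathyroid markers the sum was 2991 CPM in E4 replicate 38, against a group median of 34.7 CPM. The part of these cells in the Mup levels was not tested.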
